A study of Danio rerio with 3 samples.

Results

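The zebrafish perforin genes examined here are prf1.1, prf1.2, prf1.3, prf1.5, prf1.8 and prf1.9, 6 of the 31903 features counted in each library. They were chosen by name, and the other 2 features of the family in the files, prf1.6 and prf1.7, are given beside them. Perforin is a pore-forming protein that cytotoxic T cells and natural killer (NK) cells keep in granules. When such a cell meets its target, the granule is emptied towards it, perforin inserts into the target's membrane, and granzymes, the proteases of the same granules, enter through the pores. Mammals have a single perforin gene, whereas zebrafish have several copies. NK-lysins, a family of membrane-damaging granule peptides that includes nkl.1 and nkl.4, are another cargo of such granules.

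The cells came from lck:GFP fish, in which the promoter of lck, a kinase gene of T and NK cells, drives green fluorescent protein. All 3 libraries carry this transgene, and the labels give no treatment. One droplet library was made from thymus cells sorted for high GFP, one from kidney marrow cells and one from scale cells, both sorted for low GFP. In every comparison with the thymus, tissue and GFP gate therefore cannot be told apart. The number and age of the fish behind each library are not given in the sources used here. The questions addressed were which perforin copies were detected in the lymphocytes of each tissue, and whether they went with il2rb, a subunit of the interleukin 2 and 15 receptors, or with FP236356.1, the constant region of the T cell receptor beta chain, called trbc1 below.

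The thymus gave 4574 cells and 12405147 UMIs (unique molecular identifiers, counted as RNA molecules), the marrow 983 cells and 4987653 UMIs, and the scale 375 cells and 1279044 UMIs. Median depth per cell was 1370, 4044 and 3178 UMIs in the same order. With 1 library per tissue there is no replicate error and no test. Intervals are 95% limits that cover counting error only, and a group with 0 UMIs is given the limit of 3 UMIs. A level is the sum of a gene's UMIs over a group of cells, per 1000000 UMIs of that group (CPM). All 8 T cell markers were detected in each library. The marrow library also held 16797 CPM of erythroid and 4968 CPM of neutrophil markers, against 2.35 and 0.782 CPM in the scale, and the scale held 2578 CPM of keratinocyte markers against 1.00 in the marrow. Their part in the differences between libraries was not tested. No cell barcode was shared by any pair of libraries.

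The marrow lymphocytes used mainly prf1.9, and the scale lymphocytes prf1.9 and prf1.1. In the marrow, prf1.9 (ENSDARG00000060662) had 416 UMIs in 82 cells, a level of 83.4 CPM (75.6 to 91.8). In the scale it had 27 UMIs in 9 cells, 21.1 CPM (13.9 to 30.7), and in the thymus 2 UMIs in 2 cells, 0.161 CPM (0.0195 to 0.582). Both thymus cells also held rag1, a gene of the recombinase that builds the T cell receptor in immature T cells.

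The scale level of prf1.9 was 0.253 times that of the marrow (0.165 to 0.374). A single scale cell held 14 of its 27 UMIs. Without the highest cell of each library the ratio was 0.137, and with every cell weighted equally it was 0.148. The marrow level was 517 times that of the thymus (142 to 4286), a ratio that rests on the 2 thymus UMIs. The GFP gate also differed between these libraries, so the ratio cannot be assigned to the tissue.

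The second copy, prf1.1 (ENSDARG00000030394), lies next to prf1.9, with no gene between them in the RefSeq table of assembly GRCz12tu. It had 0 UMIs in the thymus, where 3 UMIs would be 0.242 CPM. It had 32 UMIs in 28 marrow cells, 6.42 CPM (4.39 to 9.06), and 19 UMIs in 13 scale cells, 14.9 CPM (8.94 to 23.2). Its order was thus the opposite of that of prf1.9, with the scale 2.32 times the marrow (1.24 to 4.21). No cell of either library held more than 3 UMIs of prf1.1. In contrast, 14 marrow cells held 10 or more UMIs of prf1.9, and the highest held 45.

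The remaining copies were found in few cells. prf1.8 (ENSDARG00000109428) had 26 UMIs in 10 marrow cells, 5.21 CPM (3.41 to 7.64), and 1 UMI in the scale. prf1.2 (ENSDARG00000021444) had 18 UMIs in 2 marrow cells, 17 of them in 1 cell, and none in the scale. prf1.5 (ENSDARG00000037598) had 1 UMI in the marrow and none elsewhere, and prf1.3 (ENSDARG00000001572) had no UMI in any library, which allows up to 0.601 CPM in the marrow and, at its lower depth, 2.35 CPM in the scale. The thymus held no UMI of prf1.1, prf1.2, prf1.3, prf1.5 or prf1.8.

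Of the 2 other family features, prf1.7 (ENSDARG00000110781) had 75 UMIs in 23 marrow cells, 15.0 CPM (12 to 18.8), and 0 UMIs in the scale, so that it was at least 6.41-fold lower there. prf1.6 (ENSDARG00000024522) had 1 UMI in all, in a scale cell of 31938 UMIs. prf1.2, prf1.7 and prf1.8 also lie close together, with 1 gene between prf1.2 and prf1.7 and 1 between prf1.7 and prf1.8 in the same RefSeq table. prf1.7 was above prf1.1, prf1.2 and prf1.8 in the marrow, and the intervals of prf1.1, prf1.2 and prf1.8 overlapped there. Each tagged molecule counts once whatever its length. How reads fitting several copies were counted is not given in the sources used here, and how alike the copies are was not analysed. The split of UMIs between copies is therefore uncertain.

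**Figure D1:**
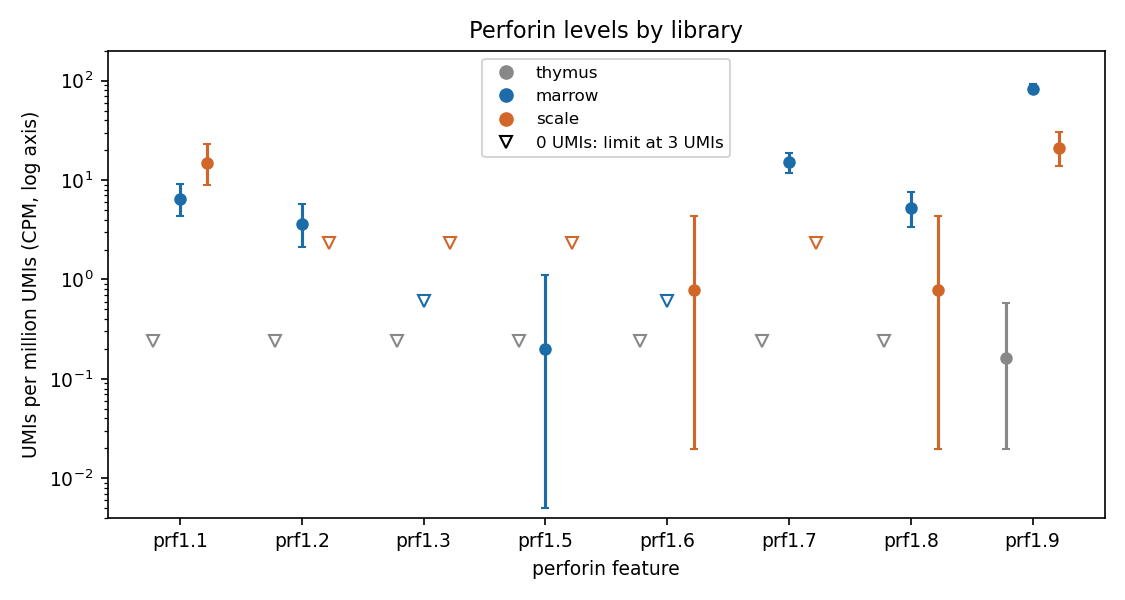
Level of each perforin feature in CPM (log axis) for the thymus, marrow and scale libraries, 1 library each, with 95% Poisson intervals; open triangles mark features with 0 UMIs at the limit of 3 UMIs. Marrow prf1.9 was at 83.4 CPM and scale prf1.9 at 21.1, and prf1.1 was at 6.42 and 14.9.

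Of the 493 marrow UMIs of the 6 genes, prf1.9 held 84.4% (80.9 to 87.5), prf1.1 6.49%, prf1.8 5.27% and prf1.2 3.65%. The limits take UMIs as independent, though 14 cells held 255 of the 416 marrow prf1.9 UMIs. By cells, prf1.9 was in 82 and prf1.1 in 28 of the 115 marrow cells with any of the 6 genes. Of the 47 scale UMIs, prf1.9 held 57.4% (42.2 to 71.7) and prf1.1 40.4% (26.4 to 55.7). These limits overlap, and 1 scale cell held 14 of the 27 prf1.9 UMIs. By cells prf1.1 was the more frequent, in 13 scale cells against 9, so no order of the 2 copies is read in the scale. Counting prf1.6 and prf1.7 as well, prf1.9 held 73.2% and prf1.7 13.2% in the marrow.

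Any of the 6 genes was detected in 115 of 983 marrow cells (11.7%), 23 of 375 scale cells (6.13%) and 2 thymus cells. Because depth differed, each cell was also thinned to 1000 UMIs, which left out 1344 thymus and 36 scale cells. The share with prf1.9 was then 4.37% in the marrow (43 of 983, 3.18 to 5.85), against 8.34% unthinned. It was 1.18% in the scale (4 of 339, 0.322 to 2.99), against 2.40% unthinned, and 1 of 3230 thymus cells. The lower share of prf1.9 in the scale was thus also seen at equal depth, from 4 scale cells. Thinned to 2000 UMIs, it was 2.78% in the scale (1.21 to 5.40) and 6.78% in the marrow (5.26 to 8.58), limits that overlap. They also overlapped under some other cell filters. Thinned to 1000 UMIs, the shares of prf1.1, 0.509% in the marrow and 1.18% in the scale, rest on 5 and 4 cells, and no order is read from them.

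Background was measured in cells that should lack perforin. In the marrow, 13 cells rich in haemoglobin (median 7088 UMIs) held 1 UMI of prf1.8 and none of the other 5 genes. A group of 12 cells rich in neutrophil genes (median 8563.5 UMIs) held none of the 6. For a gene with no UMI the upper Poisson limit was 34.5 CPM in the former cells and 17.1 CPM in the latter. Both limits lie below the marrow level of prf1.9 (83.4 CPM). They lie above those of prf1.1 (6.42 CPM), prf1.8 (5.21 CPM) and prf1.2 (3.61 CPM). These cells thus bound the background of prf1.9 only, and are too few to do so for the other genes. The marrow file also lists 518348 barcodes with under 100 UMIs, which mostly hold free RNA. prf1.9 was 2.52 times higher in called cells than in these barcodes (2.07 to 3.10), and prf1.1 1.79 times (0.927 to 3.63). By the same measure il2rb was at 2.27 times, nkl.1 at 1.92 times and trbc1 at 1.16 times (1.11 to 1.21). As trbc1 was detected in 91.3% of called cells, a ratio near 1 does not by itself mark a gene as background. prf1.7 was at 0.850 times (0.605 to 1.2) and prf1.8 at 0.370 times (0.223 to 0.600), so summed over cells neither lay above the free RNA. In single cells, though, prf1.8 reached 5 UMIs and prf1.7 19. The scale library held no cells rich in haemoglobin or neutrophil genes, and its file no barcodes under 500 UMIs, so the scale background was not measured, and 8 of its 13 cells with prf1.1 held 1 UMI.

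With 1 library per tissue, a feature was called different where (UMIs + 3) per 1000000 differed at least 4-fold, among features with at least 100 UMIs in the compared groups together. Between scale and marrow this held for 1.61% of 4537 features in the direction of the scale and 2.87% in that of the marrow. Of the 6 genes only prf1.9 had 100 UMIs, and its log2 ratio of -1.84 did not reach the call. Between marrow and thymus 4.34% of 8299 features were called higher in the marrow, prf1.9 among them at a log2 ratio of 7.70, and 7.28% lower.

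Cells were next split by a UMI of il2rb and of trbc1. In the marrow, most prf1.1 UMIs were in il2rb-positive cells, and prf1.9 was in both il2rb classes. prf1.1 had 28 of its 32 UMIs in the 367 il2rb-positive cells (16 CPM) and 4 in the 616 il2rb-negative cells (1.23 CPM), a ratio of 13.0 (4.54 to 50.9). In the scale it had 18 of 19 UMIs in the 163 il2rb-positive cells (27.8 CPM) and 1 in the 212 others (1.59 CPM), a ratio of 17.5 (2.77 to 730). The direction was the same in both tissues. Deeper cells show il2rb more readily, and median depth was 4446 against 3896.5 UMIs in the marrow and 3845 against 2920 in the scale. With status read from cells thinned to 1000 UMIs the prf1.1 ratio was 3.21 in the marrow and 6.79 in the scale, so it was smaller but still above 1. The scale ratio rests on 1 UMI without il2rb and ranged down to 5.76 under other cell filters. With each cell thinned to 1000 UMIs, prf1.1 was in 3 of 367 il2rb-positive marrow cells (0.817%, 0.169 to 2.37) and 2 of 616 others (0.325%, 0.0393 to 1.17), limits that overlap. Whether the il2rb ratio differs between prf1.1 and prf1.9 was not tested. A higher marrow level with il2rb was not particular to prf1.1. prf1.8 had 20 UMIs in il2rb-positive and 6 in il2rb-negative marrow cells, a ratio of 6.18 (2.39 to 18.8), from 10 cells in all. All 18 marrow UMIs of prf1.2 were in il2rb-positive cells, 17 of them in 1 cell. The 1 UMI of prf1.5 was in an il2rb-negative cell.

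For prf1.9 the marrow ratio was 2.79 (2.28 to 3.42), with 250 UMIs in il2rb-positive cells (143 CPM) and 166 in il2rb-negative cells (51.2 CPM). This depended on how status was set. The ratio was 3.82 without the cell richest in prf1.9, 1.3 (1.02 to 1.64) with status from thinned cells, and 1.13 (0.907 to 1.41) where status needed 2 UMIs of il2rb. By cells rather than UMIs, and thinned to 1000 UMIs, prf1.9 was in 30 of 367 il2rb-positive cells (8.17%, 5.58 to 11.5) and 13 of 616 il2rb-negative cells (2.11%, 1.13 to 3.58). In the scale the ratio was 0.779 (0.333 to 1.78), because the cell with 14 UMIs lacked il2rb. Without that cell it was 11.6 (1.72 to 496), and 7 of the 9 prf1.9-positive scale cells held il2rb.

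The 4 classes gave the following levels. In marrow cells with both il2rb and trbc1 (348 cells), prf1.9 was at 140 CPM and prf1.1 at 16.1 CPM. Cells with il2rb alone (19 cells) had 216 CPM of prf1.9, from 16 UMIs in 3 cells, and 13.5 CPM of prf1.1, from 1 UMI. Cells with trbc1 alone (549 cells) had 64.9 CPM of prf1.9 and 1.59 CPM of prf1.1. The 67 cells with neither had 4.13 CPM of prf1.9, from 3 UMIs, the lowest of the 4 classes. They held 0 UMIs of prf1.1, which allows up to 4.13 CPM, so that their place for prf1.1 is not known. Of these 67 cells 25 were rich in haemoglobin or neutrophil genes, and the other 42, from which B cells were not set apart, had 7.43 CPM of prf1.9 (1.53 to 21.7).

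In the scale, the 136 cells with both genes had 20.8 CPM of prf1.9 and 24.3 CPM of prf1.1. The 27 cells with il2rb alone had no prf1.9 and 55.5 CPM of prf1.1, from 4 UMIs in 3 cells. The 175 cells with trbc1 alone had 28.1 CPM of prf1.9, of which 14 of 15 UMIs were in 1 cell, and 1.87 CPM of prf1.1. The 37 cells with neither held no UMI of the 6 genes. All 9 scale cells with prf1.9 thus held trbc1, and 3 of the 13 with prf1.1 did not. Over the whole scale library 311 of 375 cells held trbc1 (82.9%), so no difference between the copies is read from these counts.

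**Figure D2:**
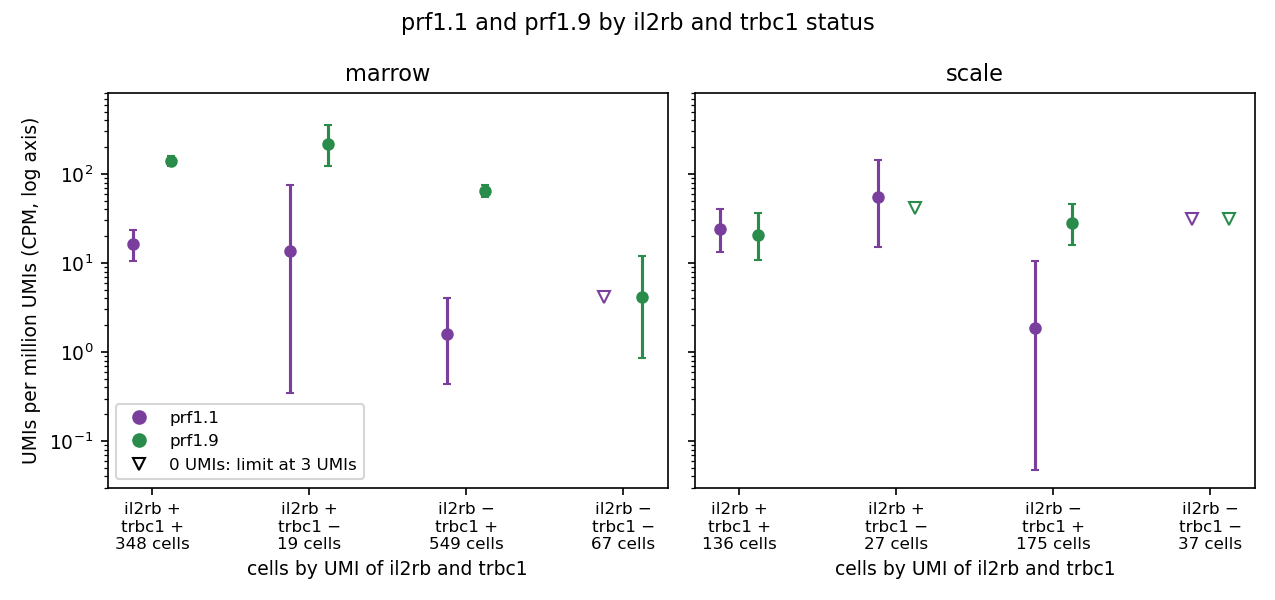
Level of prf1.1 and prf1.9 in CPM (log axis) in marrow and scale cells split by a UMI of il2rb and trbc1, with 95% Poisson intervals over the summed UMIs of each class; open triangles mark 0 UMIs at the limit of 3 UMIs. prf1.1 was low in trbc1-positive cells without il2rb (1.59 CPM in the marrow, 1.87 in the scale), where prf1.9 was at 64.9 and 28.1, the last with 14 of 15 UMIs in 1 cell.

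Over trbc1 alone, prf1.9 was 3.99 times higher in positive than in negative marrow cells (2.52 to 6.71), and prf1.1 5.93 times (0.988 to 242). The 86 trbc1-negative cells include the 25 rich in haemoglobin or neutrophil genes. Without them, a split added after the data were seen, the ratio was 2.38 for prf1.9 (1.51 to 4.0) and 3.54 for prf1.1 (0.590 to 144). Cells with B cell markers were not left out. In the scale prf1.1 was at 0.569 times (0.181 to 2.35), an interval that holds 1. For these splits, 1.38% of 3636 features were called higher and 3.91% lower in il2rb-positive marrow cells, and 2.67% and 4.18% in trbc1-positive ones. prf1.9, the only one of the 6 genes with 100 UMIs, was not called by either split. In the scale none of the 6 had 100 UMIs, and 2.31% of 1167 features were called higher and 0.857% lower by il2rb, and 0.0857% and 1.03% by trbc1.

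At least 1 of the 6 genes was detected in 74 of 348 marrow cells with both il2rb and trbc1 (21.3%, 17.1 to 25.9), 7 of 19 with il2rb alone (36.8%), 30 of 549 with trbc1 alone (5.46%, 3.72 to 7.71) and 4 of 67 with neither (5.97%). In the scale it was 17 of 136 (12.5%), 3 of 27 (11.1%), 3 of 175 (1.71%) and 0 of 37 in the same order. In both tissues the il2rb-positive classes held the higher shares, which are not thinned, and depth differed between the classes. In the scale the limits of both il2rb-positive classes overlapped those of the cells with neither gene (up to 9.49%). Those of the cells with il2rb alone (2.35 to 29.2%) also overlapped those of the cells with trbc1 alone (0.355 to 4.93%).

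Joint detection of copies was rare, but low counts limit it. Of the marrow cells with prf1.1, 25 of 28 held 1 UMI of it, and of those with prf1.9, 32 of 82. A further copy could thus go undetected, and use of 1 copy per cell is not read from these counts. In the marrow 107 cells held 1 of the 6 genes and 8 held 2, which is 6.96% of the 115 positive cells (3.05 to 13.2), and no cell held 3. In the scale all 23 positive cells held 1. Of the 8 marrow cells, 6 held prf1.1 with prf1.9 and 2 held prf1.8 with prf1.9. By status, 6 of the 8 had both il2rb and trbc1 and 2 had trbc1 alone. Doublets were not controlled in the marrow, and their part in joint detection was not tested. After thinning to 1000 UMIs, 2 of 54 positive marrow cells held 2 copies (3.70%), and this share was 6.78% with another random draw, added after the data were seen. With no mitochondrial limit it was 9.30%. The 6 marrow barcodes over that limit held 0 UMIs of the 6 genes, so they added no positive cell. The cells were thinned anew in that setting, and no effect of the limit is read from this value.

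Among the 28 marrow cells with prf1.1, 21.4% also held prf1.9 (8.30 to 41.0), against 7.96% of cells without prf1.1 (6.32 to 9.86), limits that overlap. The reverse share was 6 of the 82 cells with prf1.9 (7.32%). These and the following shares are not thinned. Median depth was 4678.5 UMIs in the marrow cells with prf1.1, against 4044 in the library. Thinned to 1000 UMIs, 1 of 5 marrow cells with prf1.1 held prf1.9 (0.505 to 71.6%), so no link between prf1.1 and prf1.9 is read. In the scale 0 of 13 cells with prf1.1 held prf1.9, which allows up to 23.1% by the limit of 3 counts. prf1.7 met prf1.9 in 9 of its 23 marrow cells (39.1%, 19.7 to 61.5), against 7.60% of cells without prf1.7. Thinned to 1000 UMIs, prf1.9 was in 5 of 11 marrow cells with prf1.7 (45.5%, 16.7 to 76.6), against 3.91% of those without (2.78 to 5.33). With all 8 features, 20 of 126 positive marrow cells (15.9%) held 2 copies.

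The clearest companion of prf1.9 in the marrow was nkl.1. The 163 nkl.1-positive cells, 16.6% of the library, held 383 of the 416 prf1.9 UMIs, at 524 CPM against 7.75 CPM in the other 820, a ratio of 67.6 (47.3 to 99.6). Where a cell held 1 to 9 UMIs of nkl.1 the level of prf1.9 was 174 CPM (135 to 221), and where it held 10 or more it was 915 CPM (817 to 1021). prf1.9 was detected in 2.93%, 23.5% and 48.7% of these 3 groups of cells. The splits by nkl.1 were chosen after the data were seen.

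Within nkl.1-positive marrow cells prf1.9 was not confined to those with il2rb. The 135 with il2rb had 390 CPM (341 to 444), with prf1.9 in 41 cells (30.4%). The 28 without had 1083 CPM (918 to 1269), with prf1.9 in 17 cells (60.7%), and 1 cell held 45 of their 153 UMIs. prf1.1 had 28.8 CPM in the first of these classes and 0 UMIs in the second, with an upper limit of 26.1 CPM. Of the nkl.1-negative cells, those with il2rb had 17.3 CPM of prf1.9 and 9.50 CPM of prf1.1, and those without had 4.20 and 1.29 CPM. The interval of prf1.1 in the first class, 16.8 to 46.1 CPM, overlaps the limit of the second, so within nkl.1-positive cells a difference of prf1.1 by il2rb was not detectable at this depth.

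All 14 marrow cells with 10 or more UMIs of prf1.9 held nkl.1, with a lowest count of 7, a median of 40.5 and a highest of 119 UMIs. Of these cells 10 held nkl.4, 10 il2rb, 13 trbc1, 4 gzmk and 3 gzma, both granzyme genes, and none held cd8b. Their il2rb counts were low, at most 2 UMIs in a cell.

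**Figure D3:**
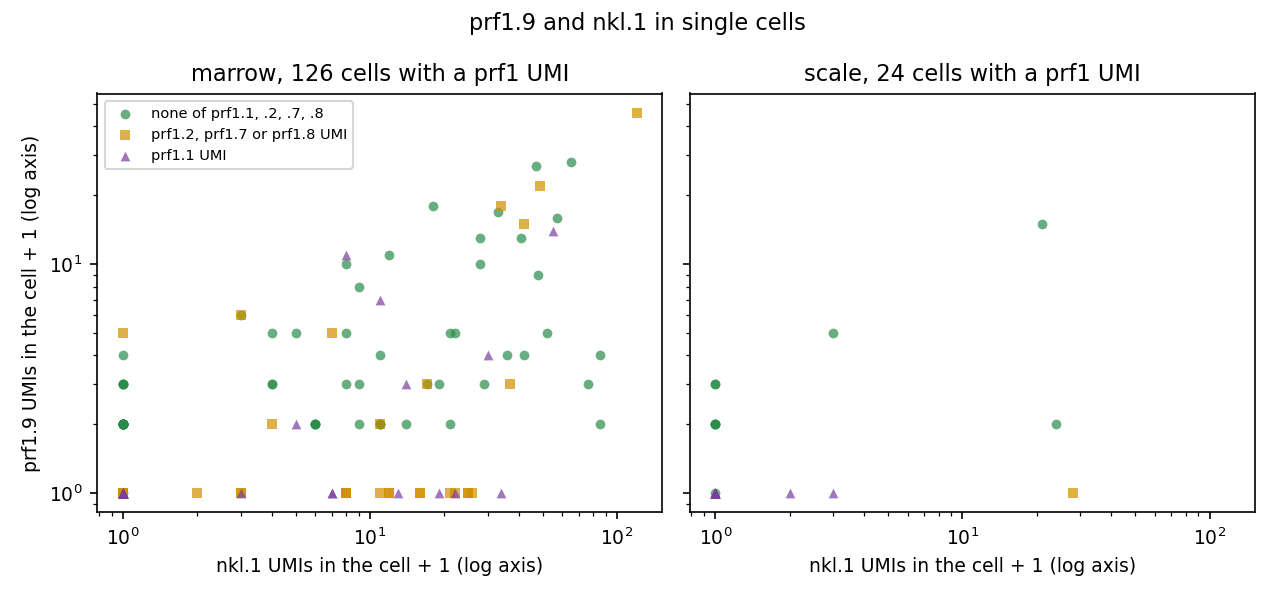
UMIs of prf1.9 against UMIs of nkl.1 in each cell with a UMI of any prf1 feature (both plus 1, log axes), in 126 marrow and 24 scale cells; each point is a cell, and shape and colour mark cells that also held prf1.1 or one of prf1.2, prf1.7 and prf1.8. The 14 marrow cells with 10 or more UMIs of prf1.9 all held 7 or more UMIs of nkl.1, and 1 scale cell held 14 and 20.

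In the scale, 3 of the 9 prf1.9-positive cells held nkl.1, among them the cell with 14 UMIs, which had 20 UMIs of nkl.1 and 3 of nkl.4. prf1.9 was at 115 CPM in the 40 nkl.1-positive scale cells and 7.18 CPM in the other 335, a ratio of 16.1 (6.72 to 42.5) that rests largely on this cell. Of the 6 prf1.9-positive cells without nkl.1, 4 held nitr4a, a receptor gene of the NITR family (66.7%), against 12.8% of scale cells with no prf1 feature. These shares are not thinned and the first rests on 6 cells, so no link between the genes is read from them. Over the 99 scale cells with nitr4a or the chemokine gene ccl20a.3, prf1.9 was at 21.1 CPM, and over the other 276 at 21.1 CPM as well, in 5 and 4 cells. The cell with 14 UMIs was among the other 276 and held most of their prf1.9 UMIs. The equal levels thus rest on that cell, and no likeness of the groups is read from them. prf1.1 was at 6.02 CPM in the first group and 18 CPM in the second, a ratio of 0.335 (0.0375 to 1.41).

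The cells with prf1.1 held these genes in other proportions. In the marrow 13 of its 28 cells held nkl.1, 24 il2rb, 12 gzma and 19 gzmk. In the 857 cells with no prf1 feature the shares were 9.57% for nkl.1, 32.2% for il2rb, 14.1% for gzma and 56.1% for gzmk. The gzmk level was 325 CPM (238 to 434) with prf1.1 and 327 CPM (310 to 344) with no prf1 feature. The il2rb level of the prf1.1 cells was 785 CPM, against 451 CPM in the 82 cells with prf1.9 and 223 CPM with no prf1 feature. The nkl.1 level was 1521, 3937 and 150 CPM in the same order. prf1.1 was 3.05 times higher in gzma-positive cells (1.36 to 6.55), while prf1.9 was at 0.711 times (0.519 to 0.955) there and at 0.199 times (0.154 to 0.254) in gzmk-positive cells. In the scale 12 of the 13 cells with prf1.1 held il2rb and 2 held nkl.1. The splits by single granzyme genes were also chosen after the data were seen.

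Many cells with prf1.2, prf1.7 or prf1.8 held nkl.4. It was in 14 of 23 marrow cells with prf1.7, 6 of 10 with prf1.8 and 2 of 2 with prf1.2, against 15 of 82 with prf1.9, 6 of 28 with prf1.1 and 21 of 857 with no prf1 feature. It was also in 10 of the 14 cells with 10 or more UMIs of prf1.9. The nkl.4-positive cells, 53 in number, held 60 of the 75 prf1.7 UMIs. The 6 prf1.8 cells with nkl.4 held no prf1.9, and the 2 prf1.8 cells with prf1.9 held no nkl.4. One marrow cell of 17386 UMIs held 19 of the prf1.7 UMIs and 224 of nkl.4, and it lacked il2rb and trbc1. gzma was in 10 of 23 cells with prf1.7 and 0 of 10 with prf1.8, where the upper limit is 30.8%, against 14.1% of cells with no prf1 feature.

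**Figure D4:**
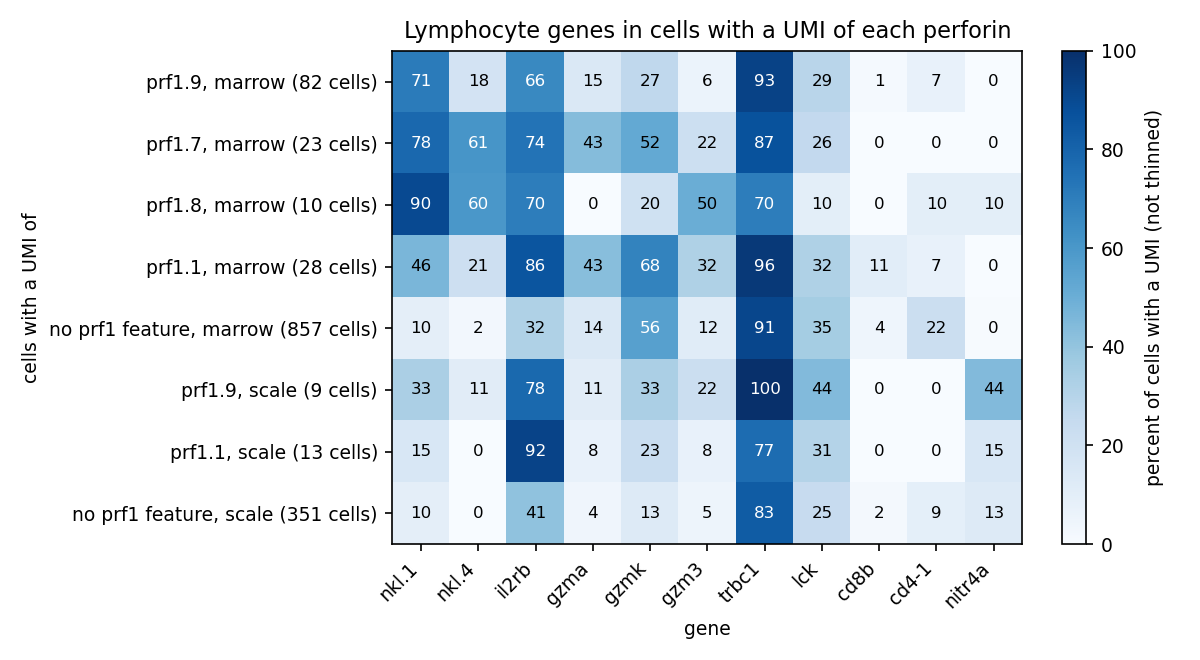
Percent of cells with a UMI of each lymphocyte gene (columns, trbc1 is FP236356.1) among marrow and scale cells with a UMI of each perforin feature or of none (rows, with their number of cells), not thinned. nkl.4 was in 61% of marrow cells with prf1.7 and 60% of those with prf1.8, and il2rb in 86% of marrow and 92% of scale cells with prf1.1.

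By other cell states in the marrow, prf1.9 was at 19.5 CPM in cd4-1-positive cells against 102 CPM in the rest, and at 31.2 against 86.6 CPM by cd8a or cd8b, the coreceptor genes of helper and cytotoxic T cells. In the 61 cells with foxp3a, a gene of regulatory T cells, it was at 10.8 CPM against 87.7, and in the 33 with mki67, a proliferation gene, at 1.39 CPM against 97.3. By cells, prf1.9 was in 6 of 198, 6 of 72, 1 of 61 and 1 of 33 of these classes in turn. The foxp3a and mki67 levels thus each rest on 1 positive cell, and no lower share of cells is read from them. For cd8a or cd8b the share was 8.33% (3.12 to 17.3), against 8.34% of cells without them, so there the UMI level was lower and a lower share of cells was not seen. prf1.1 was at 1.77 CPM in cd4-1-positive cells against 7.78 (ratio 0.228, 0.0264 to 0.898). By cd8a or cd8b it was at 10.4 against 6.17 CPM, a ratio of 1.69 whose interval (0.329 to 5.44) holds 1.

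The 5 features with the largest ratio in prf1.9-positive over prf1.9-negative marrow cells were nkl.1 at 18.9 times (17.4 to 20.5), nkl.4 at 18.1 times, CR753876.1 at 8.95 times, nptna at 7.08 times and si:ch211-136m16.8 at 6.92 times. For nkl.4, 68.1% of the UMIs behind this ratio were in 1 cell. The 5 whose levels ran most like prf1.9 over 10 groups of cells, split by library, il2rb and trbc1, were rpl14 (Pearson r 0.943), rpl5b (0.935), rpl27 (0.933), gig2i (0.930) and rpl35a (0.925). The 10 groups come from 3 libraries, and their median depth ran from 790 UMIs (thymus, neither gene) to 6190 UMIs (marrow, neither gene). These values are therefore a description.

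Of a list of 25 granule and cytotoxic genes 21 were matched. Between scale and marrow, 13 had 100 UMIs, 0 were called higher and 3 lower in the scale: gzmk at 0.235, nkl.3 at 0.0205 and nkl.4 at 0.0209 times the marrow. For nkl.3, 1 marrow cell held 367 of the 380 marrow UMIs, so its ratios between libraries rest on that cell. For nkl.4, 1 marrow cell held 224 of 561. The median log2 ratio of the 13 was 0.04, beside 0.26 over all features tested. Between marrow and thymus 10 of 13 were called higher and 0 lower, with a median of 6.17 beside -0.46. Between scale and thymus 2 of 6, nkl.1 and srgn, the proteoglycan of granules, were called higher, where 4.10% of 7615 features were called higher and 8.52% lower. None of the 6 perforin genes had 100 UMIs there.

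Between il2rb-positive and il2rb-negative marrow cells 5 of the 13 were called higher, namely gzma, gzm3, gzm3.3, nkl.1 and faslg, the Fas ligand gene, and 1 lower, nkl.3, whose UMIs were nearly all in 1 cell. The median log2 ratio was 0.73, beside -0.00 over all features. gzmk was at 1.08 times (0.974 to 1.2), and prf1.1, with 32 UMIs, was under the minimum for a call. Of the relatives that share the perforin fold, mpeg1.1, a macrophage gene, had 167 thymus UMIs, 32 marrow UMIs and 0 from the scale.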

How the data were processed

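The deposited files hold raw UMI counts per feature and barcode, as the authors made them, not normalized. Cell Ranger 6.0.0 wrote those of thymus and scale and Cell Ranger 4 that of the marrow, per the file headers. The submitters' processing notes name Cell Ranger 6.0.0, Seurat 4.3.0 and build GRCz11. A barcode counted as a cell from 500 UMIs and 250 genes upward, with mitochondrial UMIs up to 10%. Marrow barcodes, deposited unfiltered, also needed 1394.89 UMIs (percentile 99 of the 3000 largest, divided by 10). Scrublet (scanpy 1.11.5, expected rate 0.05) called 0 thymus, 0 marrow and 16 scale barcodes, which were left out, so doublets are not controlled in thymus and marrow. Intervals are exact (Poisson, Clopper-Pearson, conditional binomial; scipy 1.17.1). The script was tested on simulated data.

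The members and lists were chosen with earlier results of these data known. Named genes were the 6 members, the other prf1 features, the list genes, and the top 5 of each ranking (log2(CPM + 10) correlation; ratio in positive cells). Protein identity between copies was not analysed here. Of the listed genes, nkl.2, fasl, ap3b1a and ifng1 were not matched under these names.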

Additional observations from a re-analysis of the deposited data

Results flagged for a closer look

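The il2rb-positive over il2rb-negative ratio of prf1.9 was 2.79 in the marrow and 0.779 in the scale. The difference between the tissues was not tested, and the scale value turned to 11.6 without 1 cell.

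Perforin UMIs were also found outside the called cells. Marrow barcodes with under 100 UMIs held prf1.9 at 33.1 CPM, prf1.8 at 14.1 CPM, prf1.1 at 3.59 CPM and prf1.2 at 3.33 CPM. In the 205 marrow barcodes that had 500 UMIs but missed the minimum for a cell, prf1.9 was at 237 CPM, from 36 UMIs in 7 barcodes.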

How the results depend on the processing

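Of 140 values recomputed under 13 settings, 124 stayed within the counting interval of the reported value and 16 moved outside it. Part of the 124 could not move. A minimum of 1000 UMIs and keeping the Scrublet calls left the marrow cells unchanged. A marrow minimum of 500 UMIs and leaving out cells rich in haemoglobin or neutrophil genes left the scale cells unchanged. The count of 124 is thus not a measure of stability. The scale il2rb ratio of prf1.9, 0.779 with an interval that holds 1, turned above 1 under 3 settings: 11.6 without the highest cell, 1.31 with each cell weighing the same and 1.32 with status from thinned cells. Without the highest cell, marrow prf1.9 was at 74.4 CPM, scale prf1.9 was at 10.2 CPM, their ratio was 0.137, and the il2rb ratio of prf1.9 was 3.82 in the marrow. With each cell weighing the same, prf1.9 was at 122 CPM in the marrow and the scale over marrow ratio was 0.148. With status from thinned cells the marrow il2rb ratio was 1.3 for prf1.9 and 3.21 for prf1.1, and with status from 2 UMIs, a setting added after seeing the data, 1.13 for prf1.9. Thinned to 2000 UMIs, 6.78% of marrow cells held prf1.9 and 1.59% prf1.1. Unthinned, 8.34% and 2.85% did, and 3.47% of scale cells held prf1.1. With 8 features, also added, prf1.9 held 73.2% of the marrow UMIs. Leaving out the marrow cells rich in haemoglobin or neutrophil genes, also added, moved no marrow il2rb ratio and no scale over marrow ratio outside its interval. The trbc1 ratios were not among the 140 values. For prf1.9 in the marrow, leaving out these cells took the trbc1 ratio from 3.99 (2.52 to 6.71) to 2.38, outside that interval. The cause of these shifts was not tested, beyond what each setting removes. No paired analysis was possible because each tissue has 1 library. Counts of 1 to 5 cells limit the prf1.1 shares and most joint detection.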
